A study of Mus musculus with 2 samples.

Results

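The 10 genes described here, Ret, Gdnf, Gfra1, Wnt11, Six2, Cited1, Wt1, Pax2, Lhx1 and Crym, mark nephron progenitors and the branching tips of the ureteric epithelium in the embryonic kidney. They were taken by name from the arrays: every non-control probe that carries one of these gene names, 14 of 39429 probes. All 10 genes had at least 1 probe well above background and were among the 20516 genes tested, through 11 of the 14 probes.

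The RNA came from ureters dissected from NMRI mouse embryos at E14.5 and was measured on 2 dye-swapped 2-colour Agilent arrays, each holding 1 RNA labelled Gata2cKO and 1 labelled control. The Gata2cKO embryos had the genotype Tbx18(cre/+);Gata2(fl/fl), in which Cre recombinase is made from 1 Tbx18 allele and both alleles of Gata2, which encodes a zinc finger transcription factor, are floxed. The controls were Tbx18(+/+);Gata2(fl/?), with no Cre and with a further Gata2 allele that the labels do not specify. Tbx18 is expressed in the mesenchyme around the ureteric epithelium, and not in that epithelium, so the Cre acts in the mesenchyme. On array 1 both RNAs were female and the Gata2cKO RNA carried Alexa Fluor 647, and on array 2 both were male and the Gata2cKO RNA carried Alexa Fluor 555. Sex, dye orientation and the pair of RNAs therefore changed together between the arrays and cannot be told apart, and the labels do not say how many embryos went into an RNA. Cre and the loss of 1 Tbx18 allele were present in the Gata2cKO RNA alone, so their effects cannot be told apart from those of Gata2.

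In the kidney, the metanephric mesenchyme secretes the growth factor GDNF, which binds the co-receptor GFRA1 and the receptor tyrosine kinase RET on the ureteric epithelium and drives it to branch. RET signalling maintains Wnt11 at the branching tips, and WNT11 in turn helps to maintain Gdnf in the mesenchyme around them. The mesenchyme capping each tip holds nephron progenitors, which depend on the transcription factor gene Six2 and express Cited1. The ureter at this stage is the unbranched tube that leads away from the kidney.

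Gata2 itself does not check the labels: the log2 ratio (Gata2cKO over control) of its probe was 0.33 in the female pair and 0.54 in the male pair, a mean of 0.44 ± 0.15 (SD, n = 2; adjusted p = 0.41). The labels leave unstated which exons are floxed, and a probe outside them checks nothing. Directions below are therefore those of the RNA labelled Gata2cKO. Median spot signals were 753.6 and 428.1 in the Gata2cKO RNA on arrays 1 and 2, against 433.1 and 754 in the control RNA, the 647 channel being the brighter on both. All 12 urothelium, 9 ureteric mesenchyme and 6 smooth muscle markers looked for were well above background on both arrays in both RNAs. So were all 12 early nephron genes and all 15 autonomic neuron and glia markers, so detection does not separate ureter from neighbouring tissue.

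The probes behind the members with an unadjusted p under 0.05 (limma), and behind 2 whose ratios were small, are shown by the first 30 of their 60 bases, 5′ to 3′, as deposited. Coordinates are those of the whole probe on mm9, per the file headers, and exons and UTRs were not assigned. No base is capitalised, since no part of a probe was singled out. Both Six2 probes are shown because their values are compared.
Ret (chr6:118101791-118101850, minus strand): ccataccgtgttgacttgtttttgtaatca
Gfra1 (chr19:58311604-58311663, minus strand): ccacaacttagaacagtttggattcaaggt
Wnt11 (chr7:106001985-106002045, plus strand): gaaactgataggattaaaaataacctggca
Gdnf (chr15:7787474-7787533, plus strand): ctgatgtctcggtcgtttgtgttatacaac
Six2, brighter probe (chr17:86083634-86083693, minus strand): ccattttacgccctcatgtgaatgttcgtc
Six2, dimmer probe (chr17:86083986-86084045, minus strand): ggtgtcatctatttgagttcctttctcaac
Cited1 (chrX:99442776-99442835, minus strand): tgagtttgatttcactgcagattttccctc
Crym (chr7:127329970-127330029, minus strand): cccctattcatgtttgtggttggatagcta

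The members went in opposite directions. Ret, Wnt11 and Crym were lower in the RNA labelled Gata2cKO on both arrays, by 1.63-fold, 1.52-fold and 1.48-fold on average, while Gdnf and Six2 were higher on both, by 1.54-fold and 1.58-fold, mostly through array 2. Cited1 was also higher on both arrays, by less. The ratios of Gfra1, Wt1, Pax2 and Lhx1 had opposite signs on the arrays. None of the 10 passed an adjusted p of 0.05 by limma (0 of 10 genes), against 18 genes, or 0.0877%, of all genes tested. Of the 11 member probes kept, 0 passed when probes were tested singly, against 0.0584% of all probes kept. At an unadjusted p of 0.05 by limma, 3 members were lower (Ret, Wnt11 and Crym), against 3.41% of all genes, and 2 were higher (Gdnf and Six2), against 3.75%. The members were chosen with earlier results of these data known, so these counts are no test of the members as a set. With a variance prior that follows brightness and resists outlying genes (eBayes with trend and robust), Wnt11 (adjusted p = 0.0082), Ret (0.0175) and Crym (0.0249) passed, among 375 genes in all. At the unadjusted threshold Gdnf dropped out under that prior and after median centring. In the authors' deposited table Gdnf and Wnt11 alone remained at that threshold.

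**Figure D1:**
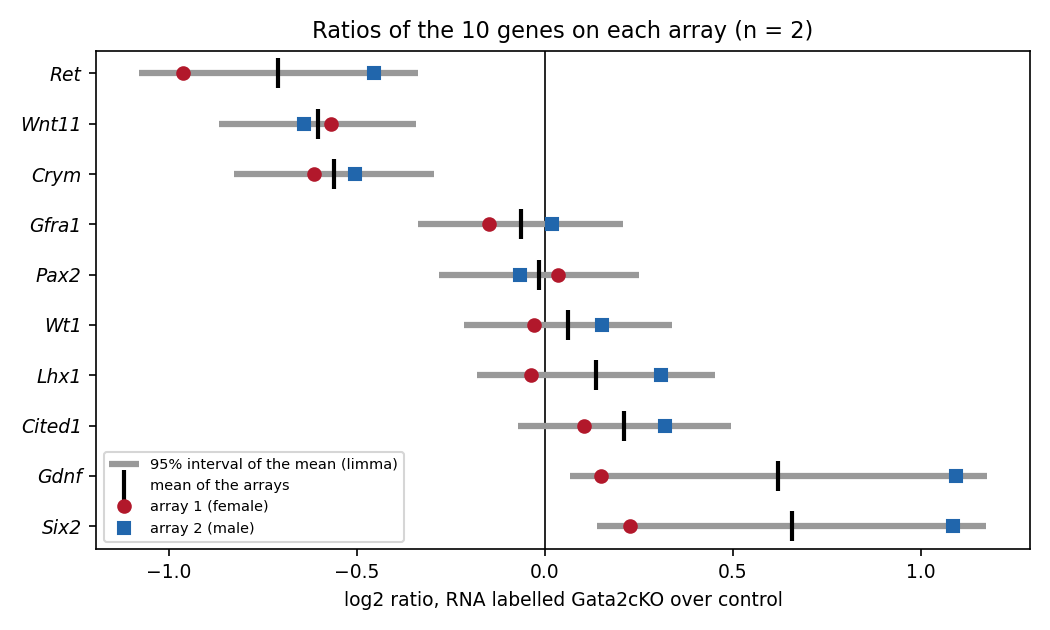
Log2 ratio of the RNA labelled Gata2cKO over control for each of the 10 genes, ordered by mean, on array 1 (circles, female) and array 2 (squares, male), with the mean (bar) and its 95% interval from limma (grey). Ret, Wnt11 and Crym lie below 0 on both arrays, and Gdnf and Six2 lie above 0 with array 2 well to the right of array 1.

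Of the 10 members, 3 were lower on both arrays, against 26.2% of all genes, and 3 were higher on both, against 27%. By size, 0 members were at least 1.5-fold lower on both arrays (0.439% of all genes) and 0 were at least 1.5-fold higher on both (0.273%). On array 1 alone Ret and Crym were at least 1.5-fold lower and none was as much higher. On array 2 alone Wnt11 was at least 1.5-fold lower and Gdnf and Six2 at least 1.5-fold higher. Of all 20516 genes, 280 were as much lower and 428 as much higher on array 1. On array 2 the counts were 429 lower and 272 higher. The median log2 ratio over the 10 members was 0.022 (-0.034 on array 1 and 0.085 on array 2), beside 0.0028 over all genes. The members' means ran from -0.71 to 0.66, while 5% of all genes lay below -0.25 and 5% above 0.27.

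Among the receptors, Ret encodes the tyrosine kinase through which GDNF acts. Its loess-normalised intensity (arbitrary units, background-corrected) was 563 and 675 in the Gata2cKO RNA on arrays 1 and 2, against 1099 and 924 in the control RNA. Both Gata2cKO values lay below both control values, but the share of all genes separated in this way was not counted. The log2 ratios were -0.96 and -0.45, a mean of -0.71 ± 0.36 (SD, n = 2; 95% interval -1.08 to -0.34; adjusted p = 0.263). The scanner software's own ratio, with its error for a single spot, was -1.10 ± 0.23 on array 1 and -0.49 ± 0.21 on array 2. The authors' deposited table differs for array 1, where Ret was at 0.0040 (log2), and had -0.86 for array 2.

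Gfra1 encodes the surface-anchored co-receptor that binds GDNF and presents it to RET. Its intensity was 859 and 846 in the Gata2cKO RNA, against 952 and 836 in the control RNA. The groups overlapped, and the mean log2 ratio was -0.065 ± 0.117 (SD, n = 2; 95% interval -0.34 to 0.21; adjusted p = 0.965). Ret was lower than Gfra1 relative to control on both arrays, and their log2 ratios differed by -0.82 in the female pair and -0.47 in the male pair. The interval for Gfra1 does not show that it was the same in both RNAs. In the authors' deposited table Gfra1 was at -0.35 and -0.36.

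Gdnf encodes the ligand. Its intensity was 1451 and 1267 in the Gata2cKO RNA, against 1308 and 594 in the control RNA. The groups overlapped: the control RNA of array 2 stood apart, and the others lay between 1267 and 1451. The log2 ratios were 0.15 and 1.09, so that array 2 lay 0.94 above array 1, and their mean was 0.62 ± 0.67 (SD, n = 2; 95% interval 0.065 to 1.18; adjusted p = 0.637). The scanner software gave 0.17 ± 0.21 on array 1 and 1.26 ± 0.24 on array 2. Gdnf was also higher in both columns of the authors' deposited table, at 1.33 and 0.91.

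Wnt11, the secreted WNT ligand gene of the ureteric tip, had the smallest spread between arrays of the members tested. Its intensity was 4987 and 4399 in the Gata2cKO RNA, against 7402 and 6856 in the control RNA. The groups did not overlap, but the share of all genes separated in this way was not counted. The log2 ratios were -0.57 and -0.64, a mean of -0.61 ± 0.050 (SD, n = 2; 95% interval -0.87 to -0.34; adjusted p = 0.197). The scanner software's ratios were -0.54 ± 0.21 and -0.69 ± 0.21, and the authors' deposited table had -0.63 and -0.43. The difference of log2 ratios between Wnt11 and Gdnf was -0.72 in the female pair and -1.73 in the male pair, and that between Ret and Gdnf was -1.11 and -1.55.

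**Figure D2:**
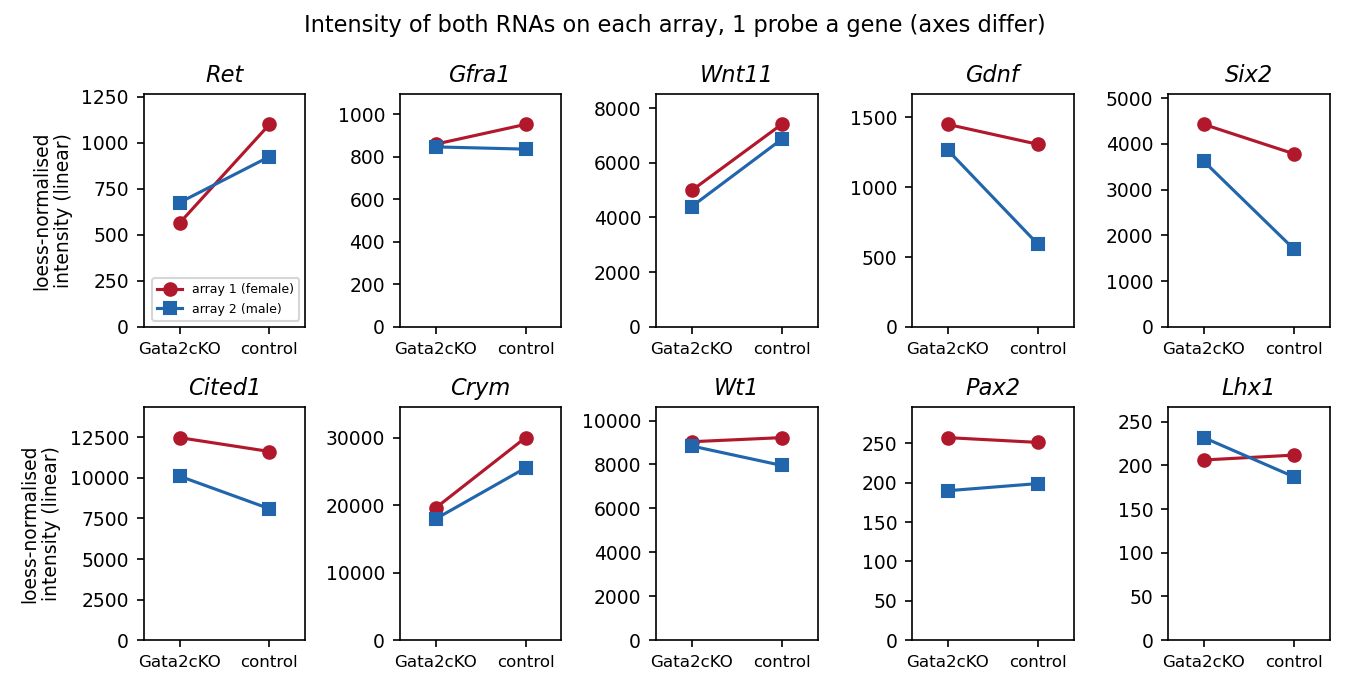
Loess-normalised intensity (linear, arbitrary units, each panel with its own axis from 0) of the RNA labelled Gata2cKO (left) and the control RNA (right) for 1 probe of each gene, with a line for each array (circles, array 1, female; squares, array 2, male). Both lines climb to the control for Ret, Wnt11 and Crym, and for Gdnf and Six2 the control of array 2 sits far below the other values.

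Among the genes of the nephron progenitors, Six2 encodes the homeobox factor that keeps these cells undifferentiated. Its brighter probe had an intensity of 4427 and 3619 in the Gata2cKO RNA, against 3785 and 1705 in the control RNA. The control RNA of array 2 was again the low value, and the groups overlapped. The log2 ratios were 0.23 and 1.09, a mean of 0.66 ± 0.61 (SD, n = 2; 95% interval 0.14 to 1.17; adjusted p = 0.555). The dimmer probe gave 0.13 and 0.73. Both probes thus put array 2 above array 1. In the authors' deposited table the brighter probe had the opposite sign, at -0.21 and -0.29, and the dimmer one was at 0 and -0.29.

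Cited1 encodes a transcriptional cofactor of the least differentiated progenitors. Its intensity was 12482 and 10107 in the Gata2cKO RNA, against 11627 and 8100 in the control RNA. The groups overlapped, and the mean log2 ratio was 0.21 ± 0.15 (SD, n = 2; 95% interval -0.072 to 0.49; adjusted p = 0.786). Six2 exceeded Cited1 by 0.12 log2 units on array 1 and by 0.77 on array 2. The authors' deposited table had the opposite sign for Cited1, at -0.23 and -0.065.

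Crym encodes mu-crystallin, a cytosolic protein that binds thyroid hormone. Its intensity was 19587 and 17965 in the Gata2cKO RNA, against 30013 and 25516 in the control RNA. The groups did not overlap, but the share of all genes separated in this way was not counted. The log2 ratios were -0.62 and -0.51, a mean of -0.56 ± 0.077 (SD, n = 2; 95% interval -0.83 to -0.30; adjusted p = 0.212). The scanner software gave -0.61 ± 0.21 and -0.52 ± 0.21, and the authors' deposited table -0.59 and -0.36. Crym was thus lower on both arrays where Six2 and Cited1 were higher, by a difference from Six2 of -0.84 on array 1 and -1.59 on array 2.

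Wt1 encodes the zinc finger factor of nephron progenitors, which is also expressed in podocytes, mesothelium and gonad. Its intensity was 9036 and 8842 in the Gata2cKO RNA, against 9222 and 7958 in the control RNA. The groups overlapped, and the mean log2 ratio was 0.061 ± 0.128 (SD, n = 2; 95% interval -0.22 to 0.34; adjusted p = 0.971).

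Pax2 and Lhx1 encode transcription factors of both the ureteric epithelium and the forming nephron, and both were dim. The Pax2 probe kept had an intensity of 257 and 190 in the Gata2cKO RNA, against 251 and 199 in the control RNA, a mean log2 ratio of -0.016 ± 0.072 (SD, n = 2; 95% interval -0.28 to 0.25; adjusted p = 0.994). A second Pax2 probe was well above background only in the control RNA of array 2, and the remaining one in no channel, so neither gives a ratio. The Lhx1 probe kept, whose ends on mm9 lie 153 bases apart for a probe of 60, had an intensity of 206 and 232 in the Gata2cKO RNA, against 212 and 187 in the control RNA. Its mean log2 ratio was 0.14 ± 0.25 (SD, n = 2; 95% interval -0.18 to 0.45; adjusted p = 0.908). The other Lhx1 probe was well above background only in the 555 channel of each array, that is in the control RNA of array 1 and in the Gata2cKO RNA of array 2, and no ratio was taken from it.

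**Figure D3:**
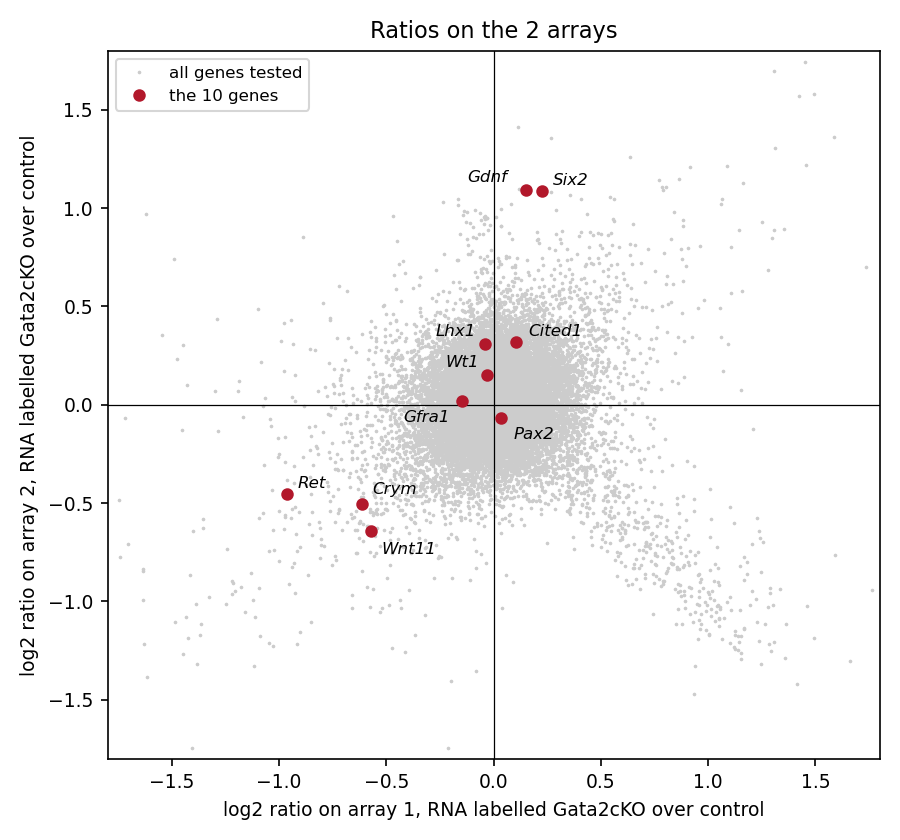
Log2 ratio of the RNA labelled Gata2cKO over control on array 1 (x axis) and array 2 (y axis) for the genes tested (grey) and the 10 genes (red, named), with both axes cut at 1.8, which leaves out 20 genes. Ret, Wnt11 and Crym fall in the lower left, Gdnf and Six2 near the vertical axis at about 1.09 on array 2, and the others near the centre.

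No gene of the pathway lists around the members passed the test. Of the other GDNF family ligands and receptors, 7 of 8 were tested and 0 passed in either direction. Their median log2 ratio was -0.22 (-0.24 and -0.20 by array), and 4 were lower and 1 higher on both arrays. Nrtn, the ligand neurturin, was at -0.34 ± 0.062 (SD, n = 2; adjusted p = 0.541) and Gfra3, the co-receptor for artemin, at -0.41 ± 0.50 (-0.76 and -0.054; adjusted p = 0.731). Of 11 genes downstream of RET or typical of the ureteric tip, 0 passed, 3 were lower and 4 higher on both arrays, and the median was 0.040. Among them the SOX factor genes Sox9 and Sox8 were at -0.42 ± 0.12 (adjusted p = 0.41) and -0.25 ± 0.14 (adjusted p = 0.735). Sox8 was dim, with an intensity of 223 and 242 in the Gata2cKO RNA, against 283 and 269 in the control RNA. The ETS factor genes that RET induces, Etv4 and Etv5, were at -0.12 and 0.13, and the feedback inhibitor gene Spry1 at -0.056. The last 3 were named after their values were seen.

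Of 15 regulators of Gdnf and Ret, 0 passed, 7 were higher and 4 lower on both arrays, and the median was 0.18. Grem1, the BMP antagonist needed for the ureteric bud to grow out, was at 0.70 and 0.62, a mean of 0.66 ± 0.058 (SD, n = 2; adjusted p = 0.165). Its probe was dim, with an intensity of 292 and 248 in the Gata2cKO RNA, against 179 and 161 in the control RNA. Sall1, a zinc finger factor gene of the nephron progenitors, was at 0.59 ± 0.18 (adjusted p = 0.234). Of 15 further nephron progenitor genes, which share some names with the regulators, 0 passed, 9 were higher and 4 lower on both arrays, and the median was 0.19. Of these, 5 were higher and 6 lower in both columns of the authors' deposited table, and the median was 0.048. The secreted WNT enhancer gene Rspo1 had the largest mean, 0.81 ± 0.77 (adjusted p = 0.535), made up of 0.27 in the female and 1.36 in the male pair. Of 12 early nephron genes 0 passed (median 0.060), with the cadherin gene Cdh6 at -0.45 ± 0.30 (adjusted p = 0.527) and the paired box gene Pax8 at 0.31 ± 0.024 (adjusted p = 0.606). Of 11 genes around Wnt11 and Wnt9b 0 passed (median 0.015), with the kinesin gene Kif26b at 0.50 ± 0.15 (adjusted p = 0.321) and the receptor gene Fzd8 at -0.42 ± 0.20 (adjusted p = 0.453). After median centring the sign of the Wnt11 and Wnt9b list turned (-0.023), and in the authors' deposited table those of the tip list (-0.030) and the early nephron list (-0.099) did. Over all genes tested the median was 0.0028.

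Differentiated kidney was seen only in part. Of 9 podocyte markers 7 were tested, and Nphs1, which encodes nephrin, was not well above background on both arrays in either RNA. Of 10 kidney tubule markers 5 were tested, and Slc34a1, Hnf4a, Slc12a1 and Umod were among those not well above background by the same rule. None of the tested markers of these lists passed, with Ptpro at 0.37 and Clic5 at 0.36 among the podocyte genes and Aqp1 at -0.36 and Lrp2 at 0.28 among the tubule genes. The summed loess-normalised intensity of the tubule markers was 7566 to 7958 in the Gata2cKO RNA, against 7688 to 8593 in the control RNA. That of the podocyte markers was 73289 to 77857 in the Gata2cKO RNA, against 74183 to 90883 in the control RNA. Most of that sum was the transcription factor gene Tcf21, which is also expressed in other kidney mesenchyme, with 68784 and 71860 in the Gata2cKO RNA, against 85949 and 69148 in the control RNA. The 15 nephron progenitor genes summed to 107570 and 107680 in the Gata2cKO RNA, against 98110 to 101540 in the control RNA. The largest part was Eya1, with 34252 and 32385 in the Gata2cKO RNA, against 29071 and 29246 in the control RNA. Next came Hoxa11, with 21508 and 21485 against 17223 and 15012. Itga8 was also large and went the other way, with 18354 and 19594 against 22017 and 22052. Kidney tissue carried along in the dissection, and whether it differed between the RNAs, was not tested as a source of the members' ratios. In these RNAs of whole ureters, fewer cells of a type and less RNA per cell cannot be told apart.

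Of 6 markers of kidney stroma, the homeobox gene Alx1 alone rose (log2 ratio 1.31 ± 0.0033, SD, n = 2; adjusted p = 0.038), while 3 were lower on both arrays and the median was -0.11. Of the 3, Fibin was at -0.67 (-0.96 and -0.38; adjusted p = 0.346) and Foxd1, which marks the stromal progenitors, at -0.077, both named after their values were seen. Alx1 is also known from mesenchyme outside the kidney. Of 9 markers of the collecting duct and ureteric stalk 0 passed (median 0.11), with Tfap2b at -0.38 and Aqp3 at 0.27, and 3 were higher and 2 lower on both arrays. In the authors' deposited table the sign of that list turned (median -0.25, with 0 higher and 5 lower in both columns), as did those of the tubule (-0.16), podocyte (0.0022) and gonad and adrenal (0.0063) lists. After median centring that of the tubule list did (-0.020). Of 6 gonad and adrenal cortex markers tested 0 passed, with Gata4 at -0.098. Lhx9 met the background rule in the control RNA alone and was tested through that RNA, with an intensity of 148 and 149 in the Gata2cKO RNA, against 206 and 250 in the control RNA (adjusted p = 0.218), and no fold is given for it. Of 5 mesothelium markers tested, Wt1 among them, 0 passed, with Msln at 0.28 and Krt19 at 0.048.

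Ret is also expressed in autonomic neurons, and markers of those cells were lower alongside it. Of 15 autonomic neuron and glia markers 2 passed, both lower. On both arrays 13 were lower and 0 higher, and the median was -1.18 in the female and -0.80 in the male pair. The granule protein gene Chgb fell (-2.06 ± 0.34, SD, n = 2; adjusted p = 0.038), as did the neuronal filament gene Prph (-1.35 ± 0.047; adjusted p = 0.038). The markers' summed loess-normalised intensity was 22486 and 23235 in the Gata2cKO RNA, against 55307 and 41482 in the control RNA, and all 15 were well above background in both. Their median was lower on array 1 than on array 2. Alx1, Chgb and Prph had log2 ratios of 1.29, -2.08 and -1.36 after median centring, a setting in which 0 of all genes passed (adjusted p = 0.722, 0.624 and 0.656). In the authors' deposited table, where 0 genes passed as well, they were at 1.71, -1.24 and -0.76 (adjusted p = 0.202, 1 and 0.574). Of the 15 neuron and glia markers, 8 passed with the processed signals, 6 with no filter on dim probes and 10 with a trended and robust prior. The part of the neuron and glia markers in the ratio of Ret was not tested. Smooth muscle markers were lower as well (6 of 6 on both arrays, 0 passing, median -0.96), with Myh11 at -1.13 (adjusted p = 0.0509) and Actg2 at -1.13 (adjusted p = 0.0532). Under the same 3 alternatives 4, 3 and 5 of them passed.

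The ureter's epithelium and undifferentiated mesenchyme were followed as well. Of 12 urothelium markers 0 passed, 8 were higher and 0 lower on both arrays, and the median was 0.17, with Upk3a at 0.51 ± 0.53 (adjusted p = 0.644) and Upk1b at 0.33 ± 0.068 (adjusted p = 0.575). Their summed intensity was 257220 and 275160 in the Gata2cKO RNA, against 219490 and 256260 in the control RNA. In the authors' deposited table the urothelium list had the opposite sign (median -0.17, with 5 lower and 1 higher in both columns). The share of all genes with the same sign in both columns is not given here. Of 9 ureteric mesenchyme markers 0 passed, 7 were higher and 0 lower on both arrays, and the median was 0.36, with Tshz3 at 0.52 ± 0.12 (adjusted p = 0.263), Id4 at 0.44 ± 0.068 (adjusted p = 0.361) and Tbx18 at 0.40 ± 0.36 (adjusted p = 0.66). The Gata2cKO embryos alone carried Cre in a Tbx18 allele, so the ratio of Tbx18 cannot be told apart from an effect of that allele.

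**Figure D4:**
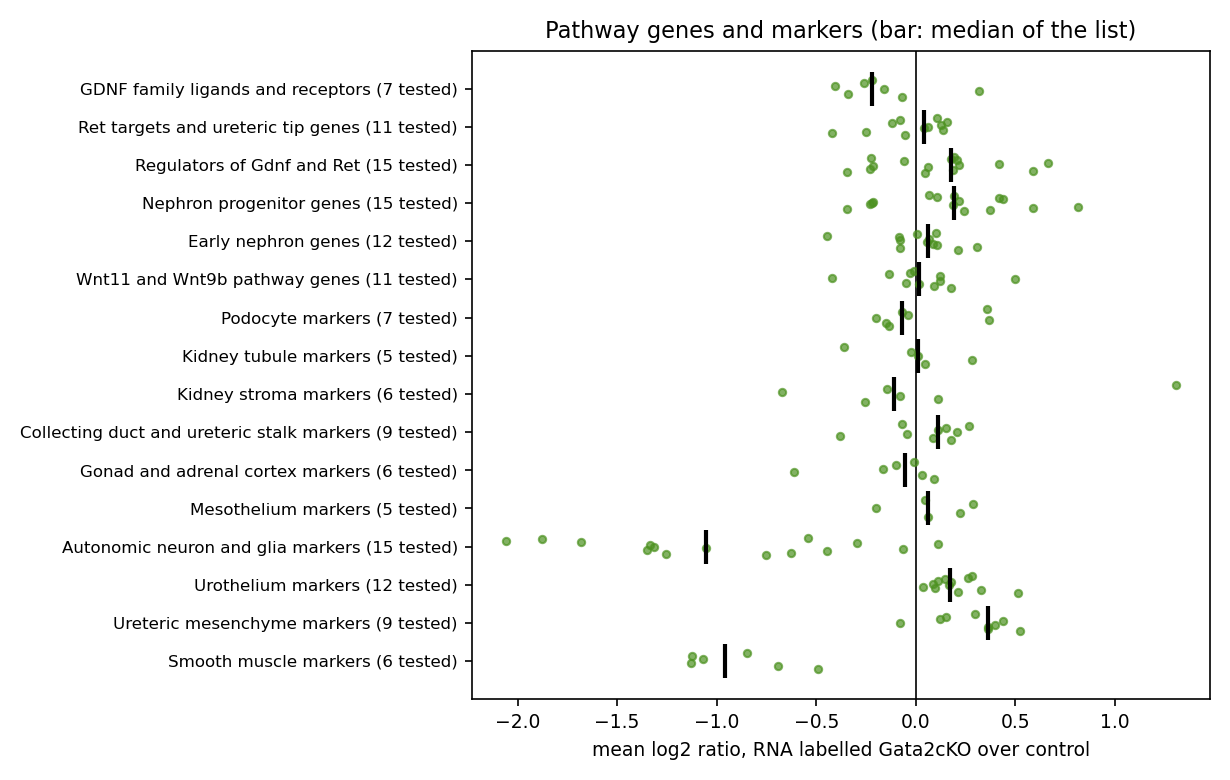
Mean log2 ratio (RNA labelled Gata2cKO over control, x axis) of each tested gene (points) in 16 lists of pathway genes and markers (rows), with the median of each list as a bar. The medians of the kidney and pathway lists lie between -0.22 and 0.19, those of the neuron and glia and smooth muscle lists near -1.

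The promoters of the members were searched for the letters a GATA factor binds, because the study deleted a GATA factor. The RefSeq promoter table (GRCm38.p6) held 13 start sites of 7 members (Gdnf, Gfra1, Wnt11, Six2, Cited1, Pax2 and Lhx1). In the 250 bases before each start, GATA was searched on both strands with A or T just before it and A or G just after it. Of the 13 windows 3 held a match, 1 each of Gdnf, Wnt11 and Six2, while 26.5% of all 32851 windows of that length did. In the Gdnf window 2 matches began 88 and 84 bases before the start and shared 2 bases. The match in the Wnt11 window, on the opposite strand, began 83 bases before the start, and that in the Six2 window 98 bases before it. Gdnf and Six2 were higher and Wnt11 lower on both arrays. The 3 windows are printed 5′ to 3′ with the matched bases in capitals. A match describes letters and shows no binding.
Gdnf (chr15:7813477-7813726, plus strand): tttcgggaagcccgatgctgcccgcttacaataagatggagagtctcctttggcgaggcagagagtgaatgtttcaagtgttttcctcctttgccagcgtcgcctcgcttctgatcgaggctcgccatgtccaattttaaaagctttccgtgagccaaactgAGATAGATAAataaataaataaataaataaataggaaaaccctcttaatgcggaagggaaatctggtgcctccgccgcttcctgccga
Wnt11 (chr7:98838595-98838844, plus strand): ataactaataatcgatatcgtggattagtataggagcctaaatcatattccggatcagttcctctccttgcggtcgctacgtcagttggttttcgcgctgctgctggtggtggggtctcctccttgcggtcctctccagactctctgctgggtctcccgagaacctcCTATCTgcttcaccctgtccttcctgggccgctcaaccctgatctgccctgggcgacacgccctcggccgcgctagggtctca
Six2 (chr17:85688255-85688504, minus strand): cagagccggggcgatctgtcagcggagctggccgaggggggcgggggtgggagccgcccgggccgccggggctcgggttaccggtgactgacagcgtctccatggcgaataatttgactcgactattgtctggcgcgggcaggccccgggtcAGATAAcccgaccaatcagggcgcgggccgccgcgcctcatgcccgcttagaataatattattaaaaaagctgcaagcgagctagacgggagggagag

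The directions of the 5 members with an unadjusted p under 0.05 (limma, after loess) were then set against other ways of processing. The mean ratios of Ret, Wnt11, Crym and Gdnf kept their sign after median centring, from the processed signals of the scanner software and in the authors' deposited table. Six2 kept it in the first 2 of these and had the opposite sign in the deposited table (-0.25), as did Cited1 (-0.15), Lhx1 (-0.21), Wt1 (-0.039) and Pax2 (0.054). The mean of Gdnf was 1.12 in the deposited table. That of Ret was -0.43 there, through array 2 (-0.86), with array 1 at 0.0040.

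**Figure D5:**
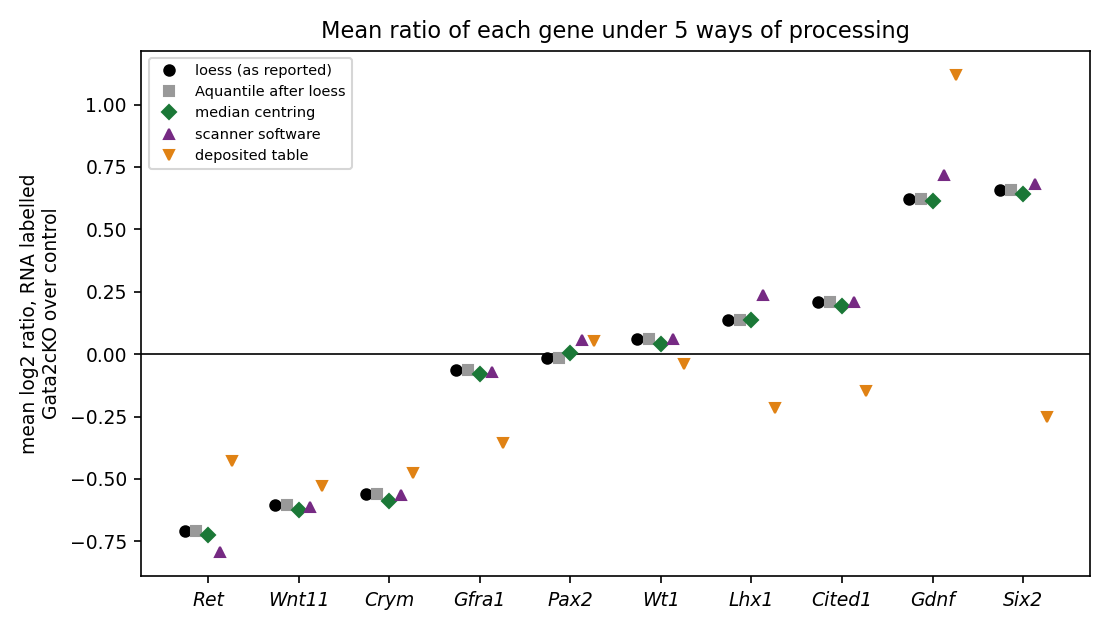
Mean log2 ratio (RNA labelled Gata2cKO over control, y axis) of each of the 10 genes (x axis) after loess as reported, with Aquantile, with median centring, from the scanner software's processed signals and from the authors' deposited table. Ret, Wnt11 and Crym lie below 0 and Gdnf above 0 in each, while Six2 lies above 0 in 4 and below 0 in the deposited table.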

How the data were processed

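Two-colour Agilent arrays of 2 pairs of RNAs were analysed. Per the file headers and the submitters' processing notes, the authors read them with Agilent Feature Extraction 10.7.3.1, with probes on mm9. The deposited files hold spot and background intensity, not normalized, and processed intensity, which per the file headers was background-subtracted, detrended and dye-normalized. They also hold a log10 ratio of red over green and its error under the software's error model, per the file headers. The authors' deposited values table is a score, from its values a signed fold change (no value between -1 and 1, 28% and 28.3% of probes at exactly 1, both columns with a median of 1). Its method and centring are not given in the sources used here. Its direction was taken from its correlation with the scanner ratios (0.443 and 0.376), and it was used as an alternative, as the log2 of the fold with its sign.

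Background was corrected by normexp (offset 50), log2 ratios were normalized by loess within arrays (span 0.3), control spots and spots with an outlier flag (255 and 178) were left out, and array 2 was turned. No spot was saturated (0 on both). Probes well above background on both arrays in 1 RNA were kept (25670), and each gene was represented by its brightest probe. Accessions were matched to RefSeq names (GRCm38.p6) for 26412 probes. limma 3.58.1 (R 4.3.3) tested each mean ratio against 0, two-sided, and p-values were adjusted by Benjamini-Hochberg over all 20516 genes. The 2 arrays leave 1 residual degree of freedom, to which eBayes added 4.68 with a prior SD of 0.163. The p-values measure only the spread between these arrays, whose number limits the precision. Background correction, loess and the limma test were run on simulated data with planted changes larger than any member's mean ratio. Those data did not test the background filter, the outlier flags or the choice of the brightest probe. Python 3.11.15, pandas 2.3.3 and matplotlib 3.10.9 drew the figures.

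The members and lists were chosen with earlier results of these data known. The text names all members, Gata2, Tbx18 and, from each list, up to 4 genes that passed; where none passed it names the 2 genes of largest mean whose sign was the same on both arrays. Etv4, Etv5, Spry1, Fibin, Foxd1, Tcf21, Eya1, Hoxa11, Itga8, Hoxc11 and Calb1 were named after their values were seen. Both arrays lay on 1 slide.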

Additional observations from a re-analysis of the deposited data

Results flagged for a closer look

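The ratios of 4 members had opposite signs on the female and the male array, with 1 array for each sex, so the difference was not tested and dye orientation changed with sex. The log2 ratios (RNA labelled Gata2cKO over control) were -0.148 on the female and 0.0179 on the male array for Gfra1, and -0.0294 and 0.152 for Wt1. They were 0.0344 and -0.0671 for Pax2, and -0.0385 and 0.309 for Lhx1. Among all genes tested, 9609 of 20516 had opposite signs. The members that differed most between the arrays had the same sign on both: Gdnf and Six2 lay 0.944 and 0.86 higher on the male array.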

How the results depend on the processing

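The number of members past the threshold (0 of 10) was also 0 with median centring, the scanner software's processed signals, Aquantile, no filter on dim probes, the mean of a gene's probes and the authors' deposited table. It was 3 with a trended and robust prior, as was the number of member probes: Ret, Wnt11 and Crym. No member (0) was 1.5-fold or more in 1 direction on both arrays, and 1 was in the deposited table (Gdnf). On 1 array alone 2 to 3 members were as large, against 280 genes lower and 428 higher of all 20516 on array 1, and 429 and 272 on array 2. The median over the members was 0.022, -0.233 in the deposited table, and -0.034 to 0.085 on single arrays. Of the genes in the lists that are no members, 3 passed, against 23 with a trended and robust prior, 16 with processed signals, 10 with no filter on dim probes, and 0 with median centring or in the deposited table. Over all genes 18 passed, against 375, 172, 54, 0 and 0. In all, 968 genes of the deposited table, and 492 with median centring, had an unadjusted p under 0.05 by limma, against 1470. Of 70 values of single members under these alternatives 39 equalled the reported value, since Aquantile, the filter and the prior leave members' ratios as they are and the mean of probes moves only Six2. Of the other 31, 7 changed sign. Those in the deposited table were Six2 (-0.251), Cited1 (-0.147), Lhx1 (-0.215), Wt1 (-0.0393) and Pax2 (0.054), and Pax2 was also at 0.00354 with median centring and 0.0585 with processed signals. On single arrays the range was -0.148 to 0.0179 for Gfra1, -0.0385 to 0.309 for Lhx1, -0.0671 to 0.0344 for Pax2 and -0.0294 to 0.152 for Wt1. The cause of the other differences was not tested. Tests could not be run on 1 array. Pax2 and Lhx1 lay close to background, which limits their ratios, and Grem1, Sox8 and Gata4 of the lists were about as dim. The comparison is already paired, since each ratio is that of 1 pair of RNAs on 1 array, which leaves no further block to add.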
